A study of Mus musculus with 18 samples.

Results

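The 10 genes described here are markers of macrophages, the resident phagocytes of most tissues. They were chosen by name, as a measure of the macrophages in a preparation of dental epithelium, and they are Csf1r, Cx3cr1, Tyrobp, Fcer1g, Lyz2, Cd68, Aif1, C1qa, C1qb and C1qc, 10 of the 33665 gene symbols measured in the series. RNA was sequenced from molar dental epithelium of mice labelled DKO (Hmgn1-/-; Hmgn2-/-), which lack the nucleosome-binding proteins HMGN1 and HMGN2, and of WT mice, at embryonic day 17 (E17) and at postnatal days 0 (P0) and 5 (P5), with 3 libraries for each genotype and stage. The epithelium was freed from the mesenchyme of the tooth germ with dispase, an enzyme that loosens tissue layers, and the labels describe no sort for cell type. They describe neither the knockout alleles nor the strain, and leave unsaid whether each library is its own animal. The p-values therefore cover the spread among these libraries, which could be technical in part. All 10 genes were in the E17 and P5 tables, and 3 of them, Fcer1g, Lyz2 and Cd68, were in the P0 table, which covers chromosomes 1 and 10 and part of 11. The other 7 were not analysed here at P0.

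Macrophages depend for survival on CSF1R, the receptor for the growth factors CSF1 and IL34. They sense dying cells and immune complexes through receptors that signal by way of the small adaptors TYROBP and FCER1G, whose tyrosine motifs recruit the kinase SYK. They are also a main source of C1q, the protein that starts the classical complement pathway and tags debris for uptake. Several of these genes are shared with other cells: osteoclasts, which resorb bone around the growing tooth and arise from the same lineage, use CSF1R, TYROBP and FCER1G, mast cells use FCER1G, and neutrophils contain Lyz2 RNA. In RNA from a whole tissue, fewer macrophages and less RNA per macrophage cannot be told apart.

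The 10 genes lie on 8 chromosomes, so no single locus carries the list, but C1qa, C1qb and C1qc lie together within 18.7 kb of chromosome 4 (136880129 to 136898803, mm10 build). RefSeq promoter windows (GRCm38.p6, the same assembly) were matched by symbol for 7 of the 10 genes, without Csf1r, Tyrobp and C1qa. The 250 bases before the start of each were searched on both strands for GAGGAA, the core letters recognised by the myeloid transcription factor PU.1 (Spi1). C1qb, C1qc, Cd68 and Aif1 held a match, 4 of 7, against 23.3% of all 32851 windows of that length, and Fcer1g, Lyz2 and Cx3cr1 held none. The Aif1 match is not within the 234 bases of its window that lie upstream of the annotated gene. The upstream sequences of Cd68 (chr11:69666171-69666420), Fcer1g (chr1:171234366-171234599) and C1qb (chr4:136886201-136886450) are shown because these 3 genes behaved differently in the comparisons that follow. All are on the minus strand and are read 5′ to 3′ towards the gene, with matches in capitals. Where a window reached into the annotated gene, as for Fcer1g, only the part upstream of the gene is shown.
Cd68: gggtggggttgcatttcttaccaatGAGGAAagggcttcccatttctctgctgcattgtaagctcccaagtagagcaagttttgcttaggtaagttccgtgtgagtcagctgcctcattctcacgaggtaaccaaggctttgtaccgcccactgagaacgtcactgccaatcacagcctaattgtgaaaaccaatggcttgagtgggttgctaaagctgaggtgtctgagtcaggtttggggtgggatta
Fcer1g: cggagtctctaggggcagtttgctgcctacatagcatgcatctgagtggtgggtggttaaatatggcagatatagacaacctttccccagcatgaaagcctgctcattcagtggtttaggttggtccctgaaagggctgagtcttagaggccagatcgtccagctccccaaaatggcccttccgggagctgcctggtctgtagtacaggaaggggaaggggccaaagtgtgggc
C1qb: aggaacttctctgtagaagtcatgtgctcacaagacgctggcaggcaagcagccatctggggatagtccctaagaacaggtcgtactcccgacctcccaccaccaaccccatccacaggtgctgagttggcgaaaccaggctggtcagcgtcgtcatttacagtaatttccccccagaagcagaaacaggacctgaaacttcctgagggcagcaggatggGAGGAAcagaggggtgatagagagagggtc
A match is a description of the letters and not of bound factor.

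Depth was 65953495 to 99967427 alignments per library for E17, 74845352 to 108920337 for P0 and, lowest, 39209676 to 72660832 for P5. Hmgn2 stood at 0.839, 0.953 and 0.975 RPKM in DKO libraries and at 354, 344 and 320.0 in WT libraries at E17, and it was at 5.44 to 10.4 RPKM in DKO against 166 to 183 RPKM in WT libraries at P5. Hmgn1 RNA was lower in DKO but remained, at 86.2 to 92.9 RPKM against 122.96 to 133 RPKM in WT libraries at E17, and neither gene is on the chromosomes analysed here at P0. The tissue label was checked with Krt5, a keratin of basal epithelium, which averaged 1219 ± 55.4 RPKM in DKO and 1092 ± 90.8 RPKM in WT epithelium at E17 (SD, n = 3 each). Transcripts of mesenchyme were present as well: Col1a1, a type I collagen gene, averaged 896 ± 119 RPKM in DKO and 1975 ± 135 RPKM in WT epithelium at E17. RPKM, reads normalised to transcript length and to sequencing depth, allow levels of different genes to be set side by side. Much of the table moved with genotype: among all tested genes the median log2 fold change was 0.25 for E17, -0.05 for P0 and -0.25 for P5. Dividing every library by its upper quartile brought those medians to -0.00, -0.04 and -0.06. The words rose and fell are used below only where limma gave a Benjamini-Hochberg adjusted p under 0.05 in the same direction as deposited and after that scaling. "Scaled" marks values after it, and log2 fold changes are of RPKM + 1, with their standard error.

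At E17 none of the 10 markers rose or fell, whereas at P5 6 of them fell and none rose, and at P0 2 of the 3 measured fell. Summed over the 10 genes, the E17 libraries held 200.5, 223 and 222 RPKM in DKO epithelium, against 182, 182 and 165 RPKM in WT epithelium. Every DKO sum was above every WT sum, by a ratio of means of 1.22, which is 0.997 after scaling. At P5 the sums were 67.3, 61.7 and 73.0 RPKM in DKO libraries and 90.6, 110.2 and 97.2 RPKM in WT libraries. Every DKO sum was below every WT sum there, with a ratio of 0.678, or 0.791 after scaling. The 3 genes measured at P0 summed to 33.2, 37.1 and 31.0 RPKM in DKO and 38.0, 28.8 and 36.3 RPKM in WT libraries, overlapping ranges with a ratio of 0.982. Most of that sum was Lyz2, and without it the P0 ratio was 0.708.

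**Figure D1:**
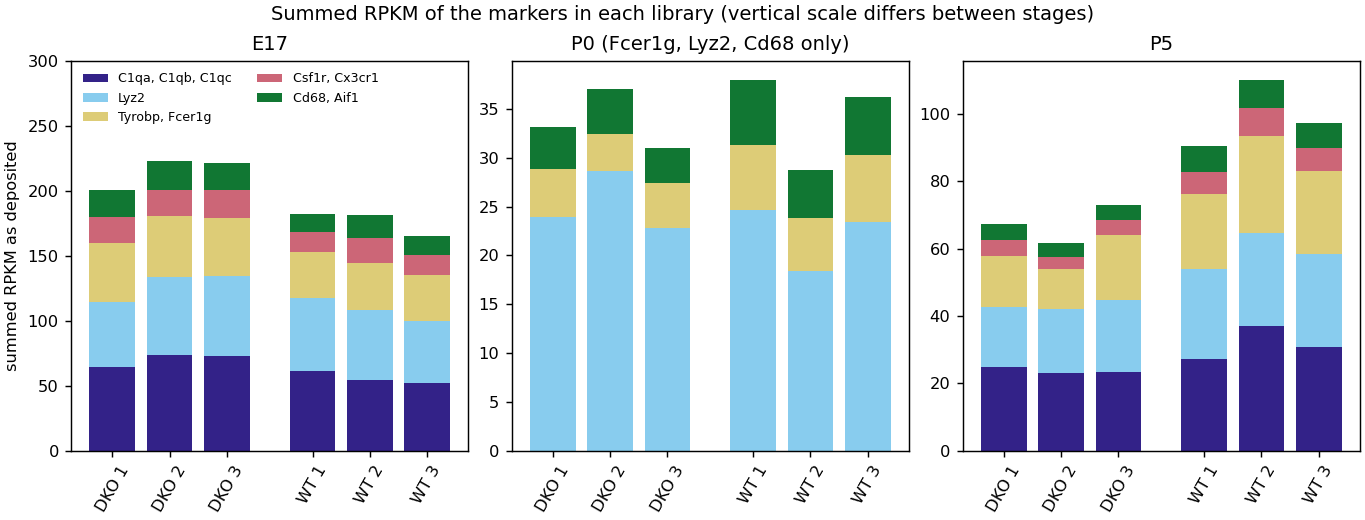
Summed RPKM of the macrophage markers in each library (vertical axis, as deposited) by stage, DKO libraries left of WT libraries, with the segments of a bar for the groups of genes in the key. At E17 the DKO bars (200.5 to 223 RPKM) stand above the WT bars (165 to 182 RPKM), and at P5 they stand below (61.7 to 73.0 against 90.6 to 110.2 RPKM); P0 holds 3 of the 10 genes.

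The counts have to be read against the whole table. At E17, 0 of 10 markers rose and 0 fell, where 6.61% of 13728 genes rose and 3.07% fell. In the values as deposited 7 of 10 were higher in DKO, against 56.3% of all genes, and after scaling 2 of 10 were lower, against 8.03%. The E17 groups did not overlap, with DKO above WT, for 7 of 10 markers as deposited (60.9% of all genes) and for 1 of 10 after scaling (18% of all genes), while 2 of 10 lay below after scaling (19.3% of all genes). At P0, 2 of 3 fell, where 22.8% of the 2062 genes tested on these chromosomes fell, and 0 of 3 rose, where 16.7% did. The same 2 genes lay wholly below WT, as deposited (29.3% of all genes) and after scaling (31.9% of all genes). At P5, 6 of 10 fell, where 30.8% of 11423 genes fell and 7.35% rose, and 9 of 10 were lower as deposited, against 58.2%. The groups did not overlap, with DKO below WT, for 8 of 10 markers at P5 as deposited (61.8% of all genes) and for 5 of 10 after scaling (35.8% of all genes). The median log2 fold change of the 10 was 0.31 at E17 (scaled 0.05) and -0.49 at P5 (scaled -0.31). The corresponding medians over all genes tested are those given above, 0.25 (scaled -0.00) and -0.25 (scaled -0.06).

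**Figure D2:**
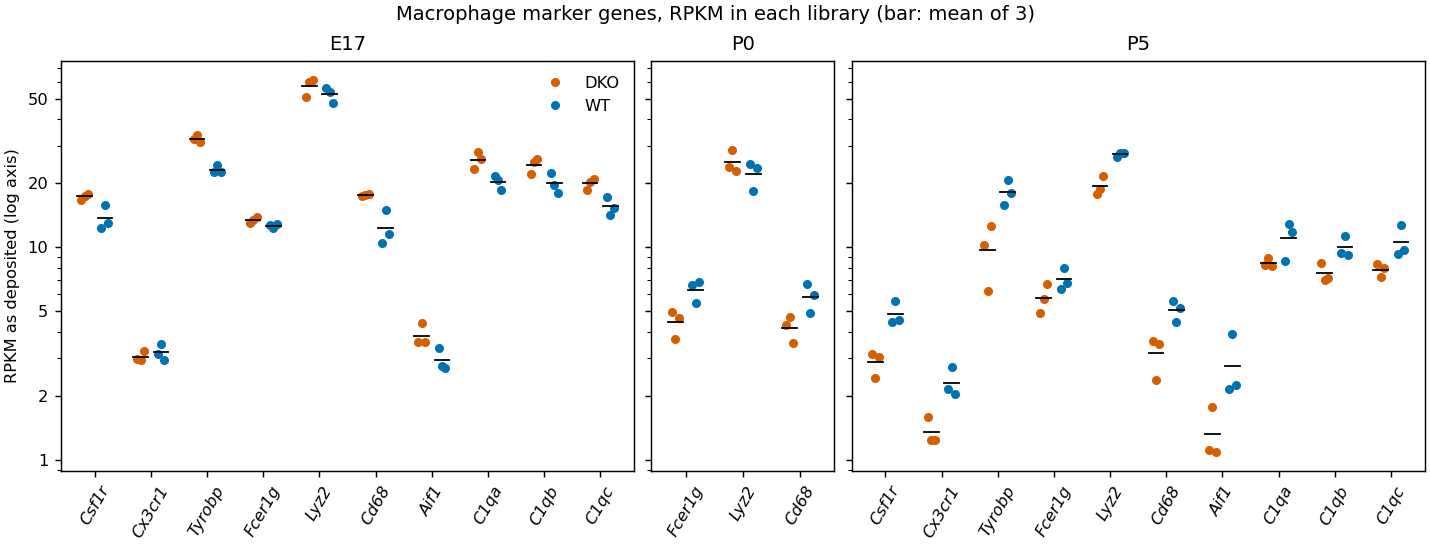
RPKM of each macrophage marker in every library (log axis), with DKO points left of WT points for each gene and a horizontal line at the mean of 3 libraries. At P5 the DKO points lie below the WT points for 8 of 10 genes, and at E17 they lie above for 7 of 10.

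The receptors come first. Csf1r (chromosome 18, 61100598 to 61132149, mm10) stood at 16.7, 17.5 and 17.8 RPKM in DKO and 12.3, 15.9 and 13.02 RPKM in WT libraries at E17. The groups did not overlap, yet the difference was lost on scaling (log2 fold change 0.32 ± 0.09, limma adjusted p = 0.0154, scaled 0.05, adjusted p = 0.727). At P5 Csf1r stood at 3.15, 2.44 and 3.06 RPKM in DKO and 4.46, 5.61 and 4.54 RPKM in WT libraries. It fell, with every DKO library below every WT library (-0.60 ± 0.10, limma adjusted p = 0.000533, scaled -0.42, adjusted p = 0.0094), and it was the one marker at P5 whose call held whichever library was left out. Of its annotated exon bases 15.1% overlap Hmgxb3 on the other strand, and whether reads were counted by strand is not given in the sources used here. Hmgxb3 itself was at 5.89 to 6.84 RPKM in DKO and 5.04 to 5.65 RPKM in WT libraries at E17. At P5 it was at 4.79 to 5.21 RPKM in DKO and 6.21 to 7.42 RPKM in WT libraries. Its part in the Csf1r values was not tested at either stage.

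Cx3cr1 encodes the receptor for the membrane-bound chemokine fractalkine (chromosome 9, 119901616 to 120069879). At E17 it stood at 2.97, 2.96 and 3.25 RPKM in DKO and 3.15, 3.503 and 2.96 RPKM in WT libraries. These ranges overlapped (-0.05 ± 0.08, limma adjusted p = 0.604), and after scaling, with no overlap, it was lower in DKO (-0.27 ± 0.07, adjusted p = 0.0441). At P5 it stood at 1.59, 1.23 and 1.24 RPKM in DKO and 2.16, 2.72 and 2.05 RPKM in WT libraries. Cx3cr1 fell there, with the groups apart (-0.49 ± 0.10, limma adjusted p = 0.00176, scaled -0.35, adjusted p = 0.0205). Without DKO replicate 2, DKO replicate 3 or WT replicate 2 the scaled adjusted p was 0.0634, 0.0679 and 0.0593, and the call was lost.

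The ligands of both receptors did not pass in both scalings at either stage. Csf1 stood at 6.61, 7.23 and 7.50 RPKM in DKO and 6.53, 8.29 and 7.08 RPKM in WT libraries at E17, above Cx3cr1 and Aif1, with overlapping groups (-0.03, limma adjusted p = 0.787, scaled -0.28, adjusted p = 0.0563). It averaged 1.62 ± 0.112 RPKM in DKO and 2.43 ± 0.421 RPKM in WT epithelium at P5 (SD, n = 3 each; -0.38, limma adjusted p = 0.00567, scaled -0.24, adjusted p = 0.0794). Cx3cl1, which encodes fractalkine, was at 1.72, 1.74 and 1.82 RPKM in DKO and 1.88, 2.46 and 2.53 RPKM in WT libraries at E17 (-0.25, limma adjusted p = 0.0501, scaled -0.44, adjusted p = 0.0252). Il34 overlapped between genotypes at E17, at 0.920 to 1.07 RPKM in DKO and 0.953 to 1.28 RPKM in WT libraries, and was below the filter at P5.

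The adaptors TYROBP and FCER1G did not move alike. Tyrobp (chromosome 7, 30413760 to 30417585) stood at 32.2, 33.6 and 31.3 RPKM in DKO and 22.6, 24.3 and 22.6 RPKM in WT libraries at E17. Every DKO library was higher, also after scaling, but the scaled test missed the threshold (0.46 ± 0.06, limma adjusted p = 0.00136, scaled 0.18, adjusted p = 0.0666). At P5 Tyrobp stood at 10.3, 6.23 and 12.6 RPKM in DKO and 15.9, 20.7 and 18.005 RPKM in WT libraries. Tyrobp fell (-0.88 ± 0.19, limma adjusted p = 0.00193, scaled -0.68, adjusted p = 0.0223), with DKO replicate 2 the lowest and WT replicate 2 the highest library. Without WT replicate 2 or WT replicate 3 the scaled adjusted p was 0.0623 and 0.0635.

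Fcer1g, the common gamma chain of Fc receptors (chromosome 1, 171229572 to 171234365), stood at 13.02, 13.4 and 13.9 RPKM in DKO and 12.8, 12.3 and 12.8 RPKM in WT libraries at E17. Every DKO library was higher as deposited and every one lower after scaling, where the test passed (0.08 ± 0.06, limma adjusted p = 0.252, scaled -0.19, adjusted p = 0.0456). At P0 it stood at 4.96, 3.72 and 4.66 RPKM in DKO and 6.63, 5.49 and 6.87 RPKM in WT libraries. Fcer1g fell at P0 with the groups apart (-0.43 ± 0.11, limma adjusted p = 0.00931, scaled -0.41, adjusted p = 0.00673), and this held with each library left out. At P5 its values were 4.93, 5.69 and 6.73 RPKM in DKO and 6.38, 7.99 and 6.81 RPKM in WT libraries. DKO replicate 3 lay within the WT range, and Fcer1g alone among the 10 failed the test there as deposited (-0.25 ± 0.11, limma adjusted p = 0.0557, scaled -0.06, adjusted p = 0.687).

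The ratio of Tyrobp to Fcer1g within a library does not depend on the scaling of libraries, and it was looked at after the values were seen. At E17 it was 2.47, 2.50 and 2.25 in DKO and 1.77, 1.98 and 1.76 in WT libraries, higher in every DKO library. At E17 the minor transcript Tyrobp-201 stood at 11.7, 5.43 and 9.77 RPKM in DKO and 4.76, 4.22 and 1.66 RPKM in WT libraries. It was higher in every DKO library. The main transcript, Tyrobp-202, stood at 19.5, 27.4 and 21.2 RPKM in DKO and 17.5, 19.8 and 20.8 RPKM in WT libraries and overlapped, and alone it gave a log2 fold change of 0.21 (limma adjusted p = 0.17, scaled -0.10). DKO replicate 2 had the lowest Tyrobp-201 of the DKO libraries and the highest Tyrobp-202. The difference is therefore not assigned to 1 transcript, and how reads were split between the 2 was not tested. The P5 table holds a single Tyrobp transcript. At P5 the ratio was 2.08, 1.096 and 1.87 in DKO and 2.49, 2.59 and 2.64 in WT libraries, lower in every DKO library. Csf1r relative to the mean of the C1q chains overlapped between genotypes at E17, at 0.781, 0.714 and 0.733 in DKO and 0.601, 0.876 and 0.752 in WT libraries. At P5 that ratio was 0.379, 0.316 and 0.394 in DKO and 0.489, 0.456 and 0.445 in WT libraries, and every DKO value was lower. These proportions between markers thus differed by genotype in the libraries at hand, without a test.

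**Figure D3:**
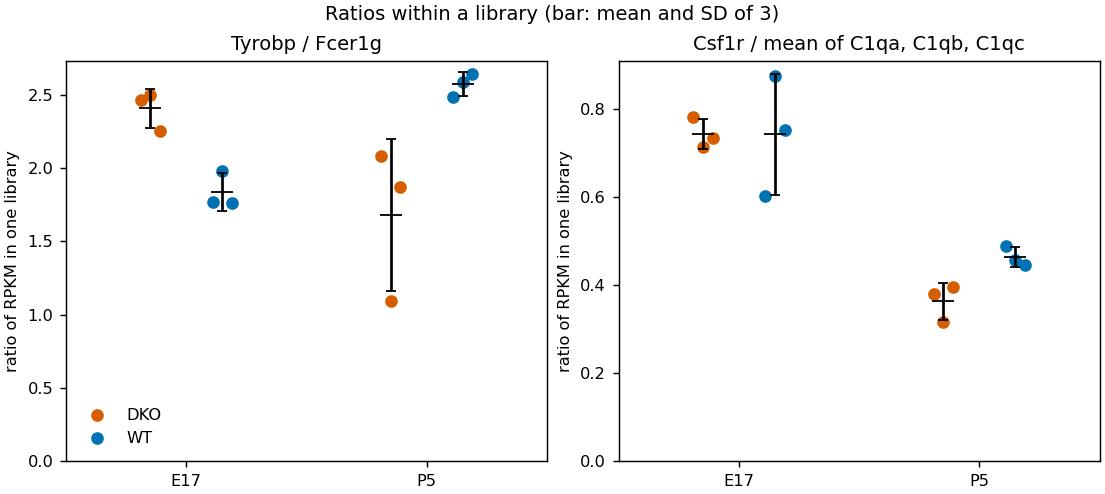
Ratios of RPKM within a library at E17 and P5, DKO left of WT, each point a library and the bar the mean and SD of 3. Tyrobp over Fcer1g is 2.25 to 2.50 in DKO against 1.76 to 1.98 in WT at E17 and 1.096 to 2.08 against 2.49 to 2.64 at P5, and Csf1r over the mean of the C1q chains overlaps between genotypes at E17 and not at P5.

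Of the lysosomal genes, Lyz2, which encodes the lysozyme of phagocytes, was the most abundant marker at each stage (chromosome 10, 117277331 to 117282321). It stood at 50.7, 59.9 and 61.3 RPKM in DKO and 56.0, 53.7 and 47.5 RPKM in WT libraries at E17, which overlapped (0.12 ± 0.09, limma adjusted p = 0.267, scaled -0.16, adjusted p = 0.133). At P0 the values were 23.9, 28.7 and 22.8 RPKM in DKO and 24.7, 18.4 and 23.5 RPKM in WT libraries, and these overlapped too (0.18 ± 0.11, limma adjusted p = 0.24, scaled 0.20, adjusted p = 0.174). At P5 Lyz2 stood at 17.7, 18.8 and 21.5 RPKM in DKO and 26.7, 27.9 and 27.7 RPKM in WT libraries. It fell, with a narrow WT range that lay wholly above DKO (-0.48 ± 0.07, limma adjusted p = 0.00025, scaled -0.27, adjusted p = 0.0142), and without WT replicate 3 the scaled adjusted p was 0.0569. Lyz1, its near-identical neighbour that can share reads with it, was at most 0.638 RPKM in any library.

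Cd68, a glycoprotein of the lysosome membrane (chromosome 11, 69664213 to 69666153), stood at 17.4, 17.7 and 17.8 RPKM in DKO and 10.504, 15.05 and 11.6 RPKM in WT libraries at E17. The groups were apart as deposited and overlapped after scaling (0.49 ± 0.11, limma adjusted p = 0.00645, scaled 0.22, adjusted p = 0.233), and without WT replicate 2 Cd68 passed as a rise. At P0 it stood at 4.30, 4.70 and 3.54 RPKM in DKO and 6.70, 4.92 and 5.95 RPKM in WT libraries. Cd68 fell there (-0.40 ± 0.12, limma adjusted p = 0.0174, scaled -0.38, adjusted p = 0.023), though leaving out DKO replicate 1, DKO replicate 3, WT replicate 1 or WT replicate 3 ended the call, with a larger adjusted p of 0.0513, 0.0906, 0.0872 and 0.0538. At P5 it stood at 3.62, 2.38 and 3.497 RPKM in DKO and 5.61, 4.46 and 5.18 RPKM in WT libraries, again apart. It fell (-0.55 ± 0.12, limma adjusted p = 0.00241, scaled -0.38, adjusted p = 0.0282), and the call was lost without DKO replicate 2, WT replicate 1 or WT replicate 3, with a scaled adjusted p of 0.0583, 0.0783 and 0.0891. Relative to Lyz2 within a library, Cd68 at P0 was 0.180, 0.164 and 0.155 in DKO and 0.271, 0.267 and 0.253 in WT libraries, which did not overlap. The same ratio was higher in every DKO library at E17, at 0.290 to 0.344 in DKO and 0.188 to 0.280 in WT libraries, and overlapped at P5, at 0.127 to 0.204 in DKO and 0.160 to 0.210 in WT libraries.

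Aif1 encodes IBA1, an actin-binding protein of the macrophage cytoplasm (chromosome 17, 35170991 to 35176068), and was among the least abundant markers. It stood at 3.58, 4.38 and 3.57 RPKM in DKO and 3.37, 2.75 and 2.71 RPKM in WT libraries at E17 (0.30 ± 0.10, limma adjusted p = 0.0284, scaled 0.07, adjusted p = 0.611). Every DKO library was higher as deposited, and the groups overlapped after scaling. At P5 it stood at 1.12, 1.78 and 1.09 RPKM in DKO and 2.14, 3.89 and 2.26 RPKM in WT libraries. Aif1 fell (-0.68 ± 0.17, limma adjusted p = 0.00475, scaled -0.53, adjusted p = 0.0371), but the scaled groups overlapped. Leaving out DKO replicate 1, DKO replicate 3, WT replicate 2 or WT replicate 3 ended the call, with a scaled adjusted p of 0.105, 0.113, 0.0849 and 0.0527.

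The C1q chains, C1qa, C1qb and C1qc, form one hexameric protein and their ratios overlapped between genotypes. C1qa over C1qb was 1.06 ± 0.0586 in DKO and 1.02 ± 0.0421 in WT epithelium at E17, and 1.12 ± 0.142 in DKO and 1.11 ± 0.185 in WT epithelium at P5 (SD, n = 3 each). At E17 C1qa stood at 23.4, 28.1 and 26.0 RPKM in DKO and 21.7, 20.6 and 18.5 RPKM in WT libraries. C1qb stood at 22.1, 25.1 and 25.9 RPKM in DKO and 22.3, 19.5 and 18.1 RPKM in WT libraries, and C1qc at 18.5, 20.4 and 20.9 RPKM in DKO and 17.3, 14.2 and 15.3 RPKM in WT libraries. All 3 were higher in DKO as deposited (log2 fold changes 0.33, 0.28 and 0.34, limma adjusted p = 0.0108, 0.0289 and 0.00926), and C1qa and C1qc without overlap. Scaling brought them to 0.05, -0.00 and 0.06, with adjusted p = 0.579, 0.985 and 0.564.

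At P5 C1qa stood at 8.21, 8.89 and 8.12 RPKM in DKO and 8.60, 12.9 and 11.7 RPKM in WT libraries. C1qb stood at 8.39, 7.05 and 7.17 RPKM in DKO and 9.44, 11.3 and 9.18 RPKM in WT libraries, and C1qc at 8.35, 7.21 and 7.9998 RPKM in DKO and 9.29, 12.7 and 9.72 RPKM in WT libraries. The DKO ranges were narrow and WT replicate 2 was the highest library for each chain. Each was lower in DKO as deposited (-0.34 ± 0.12, -0.36 ± 0.09 and -0.38 ± 0.10, limma adjusted p = 0.024, 0.00541 and 0.00909) and missed the threshold after scaling (-0.14, -0.16 and -0.17, adjusted p = 0.419, 0.184 and 0.229). The standard errors after scaling were 0.14, 0.09 and 0.11, and without WT replicate 1 C1qa passed as a fall. Among proteins that act with C1q in complement, 0 of 6 rose or fell at E17 and 0 of 3 tested did at P5, including the proteases C1ra and C1s1 and their inhibitor Serping1. Of all genes 6.61% rose and 3.07% fell at E17, and 7.35% rose and 30.8% fell at P5. Serping1 was at 5.16, 3.07 and 4.30 RPKM in DKO and 5.35, 7.33 and 6.07 RPKM in WT libraries at P5.

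**Figure D4:**
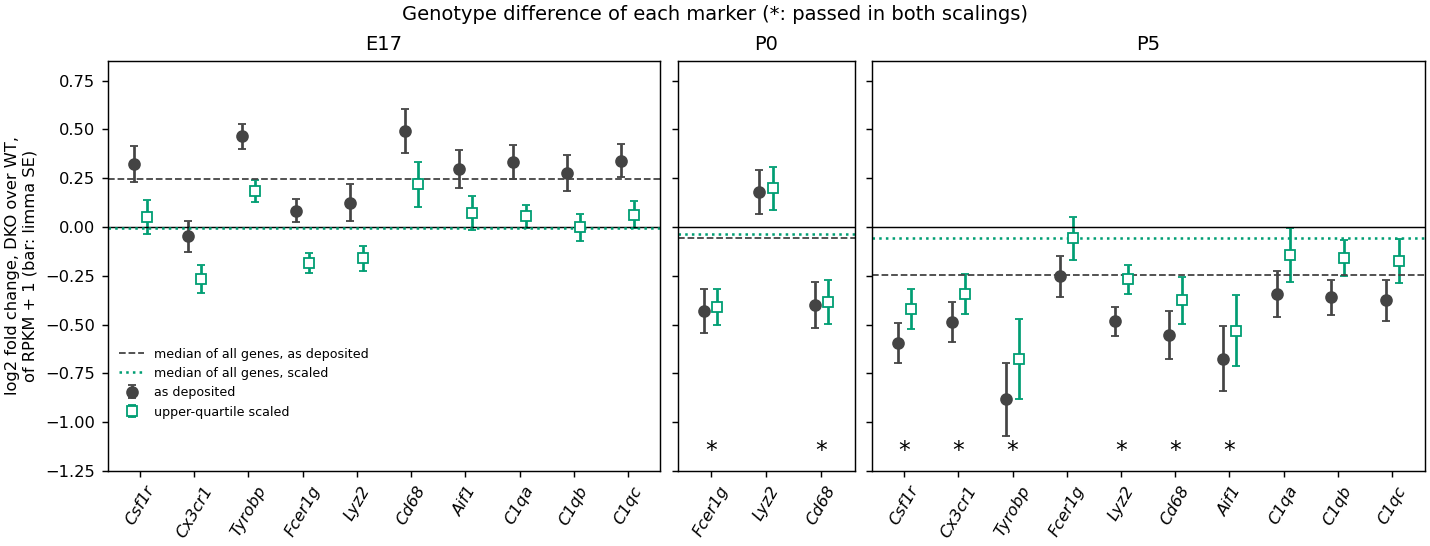
Log2 fold change of each macrophage marker (DKO over WT, RPKM + 1) with its limma standard error at E17, P0 and P5, as deposited (filled) and after upper-quartile scaling (open), with the medians of all genes as dashed and dotted lines and a star where both passed. Scaling moves the E17 values to between -0.27 and 0.22, and at P5 all 10 values are below 0 in both scalings, from -0.88 to -0.25 as deposited.

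The genotype difference itself changed between stages for some markers. From E17 to P5 it moved downward in both scalings for Csf1r, Tyrobp, Cd68 and Aif1, 4 of 10 markers, where 27.5% of 11049 genes did. The change was -1.35 ± 0.20 (scaled -0.86) for Tyrobp, -0.92 (scaled -0.47) for Csf1r, -1.05 (scaled -0.59) for Cd68 and -0.97 (scaled -0.60) for Aif1. Their adjusted p was 3.74e-05, 8.2e-06, 1.55e-05 and 0.000238 as deposited (limma estimates, Benjamini-Hochberg) and 0.00792, 0.0106, 0.00851 and 0.0283 after scaling. All 10 markers passed as deposited, but the median of all genes was itself -0.52 there (scaled -0.07). The share of all genes that passed as deposited alone is not given here, so the count of 10 has no background beside it. Between E17 and P0 the difference moved downward for Cd68 (-0.89, scaled -0.60), 1 of 3, where 23.9% of 2011 genes did. Between P0 and P5 it moved downward for Lyz2 (-0.66, scaled -0.47), 1 of 3, where 31.2% of 1758 genes did.

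Levels also differed between stages in the WT libraries, although the tables were normalized separately and the E17 and P5 tables use different transcript annotations, so this is a description. In order of WT mean RPKM at E17, the markers ran Lyz2 (52.4 ± 4.37), Tyrobp (23.2 ± 0.997), C1qa (20.3 ± 1.61), C1qb (19.98 ± 2.14), C1qc (15.6 ± 1.60), Csf1r (13.7 ± 1.89), Fcer1g (12.6 ± 0.320), Cd68 (12.4 ± 2.37), Cx3cr1 (3.204 ± 0.277) and Aif1 (2.94 ± 0.368). Among neighbours in that order, the library ranges overlapped for C1qa and C1qb, for C1qc and Csf1r, for Csf1r and Fcer1g, for Fcer1g and Cd68, and for Cx3cr1 and Aif1, and the other neighbours were apart. At P5 the WT order began again with Lyz2 (27.4 ± 0.649) and Tyrobp (18.2 ± 2.44) and ended with Aif1 (2.77 ± 0.975) and Cx3cr1 (2.31 ± 0.363). Relative to other genes tested in the same table, WT Lyz2 stood at the 92.4th percentile at E17 and the 83.7th at P5, and WT Cx3cr1 at the 24.0th and the 14.3rd. The estimated number of reads behind a value was 64 to 3345 per gene and library at E17. At P5 it was 49 to 987 for the 9 genes with a known transcript length, lowest in the shallow DKO replicate 2, where Tyrobp had 59 and Cd68 49.

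A wider list of 20 further macrophage genes, chosen with earlier results of these data known, was read beside the markers. At E17 0 of 20 rose or fell, where 6.61% of all genes rose and 3.07% fell. As deposited 6 of 20 were higher, where 56.3% of all genes were, and after scaling 2 of 20 were lower, where 8.03% of all genes were, and 12 of 20 had a value below 0. The median log2 fold change of the list was 0.13 (scaled -0.06), and the ratio of its summed levels was 1.11 (scaled 0.908). Itgam, an integrin chain of myeloid cells (0.44, scaled 0.26), and Spi1 (0.37, scaled 0.11) were among the 6. At P5 12 of the 20 were tested, and of all genes 30.8% fell and 7.35% rose at that stage. Mpeg1, which encodes the pore-forming perforin-2, was at 1.47, 1.15 and 1.43 RPKM in DKO and 2.06, 2.36 and 2.21 RPKM in WT libraries and fell (-0.45, limma adjusted p = 0.00113, scaled -0.31). The chemokine gene Pf4 (-0.71, scaled -0.52) and the Fc receptor gene Fcgr3 (-0.58, scaled -0.42) fell as well, while Mrc1, Spi1, Adgre1, Ctss, Laptm5 and Ms4a7 were lower as deposited only. Mertk, a receptor for the uptake of dying cells, stood at 22.3, 20.97 and 19.4 RPKM in DKO and 16.0, 14.6 and 13.9 RPKM in WT libraries and rose (0.47, limma adjusted p = 0.000321, scaled 0.68).

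The other lists were read for cells that share the markers. Counts in this paragraph and the next stand beside these shares of all genes tested. At E17 6.61% rose and 3.07% fell. At P5 7.35% rose, 30.8% fell and 58.2% were lower as deposited. Of 7 genes found in most leukocytes, 0 rose or fell at E17, and at P5 Lcp1, an actin-bundling protein, fell, 1 of 4 tested (-0.60, limma adjusted p = 0.000345, scaled -0.43). Of the kinases and enzymes that act downstream of the adaptors, 0 of 4 tested at P5 rose or fell, and all 4 were lower as deposited. Of the osteoclast genes, Ctsk and Acp5 stood above every macrophage marker at E17. Ctsk, the collagen-degrading cathepsin K, was at 295, 289 and 298 RPKM in DKO and 157, 208 and 152 RPKM in WT libraries. Acp5, the tartrate-resistant acid phosphatase, was at 133, 139 and 142 RPKM in DKO and 76.7, 96.9 and 75.9 RPKM in WT libraries, and both rose (limma adjusted p = 0.00172 and 0.00131), as did Oscar, an osteoclast receptor that signals through FCER1G. The osteoclast list thus had 3 of 8 tested genes rising at E17, and its summed level was 553 to 573 RPKM in DKO and 311 to 424 RPKM in WT libraries. At P5 its sum was 33.8 to 117 RPKM in DKO and 99.8 to 157 RPKM in WT libraries and 0 of 4 passed in both scalings, with Ctsk lowest, at 14.7 RPKM, in DKO replicate 2, the library where Tyrobp and Cd68 were also lowest. The part of osteoclasts in the marker values was not tested.

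Mast cell genes other than Kit did not pass at E17, with Tpsb2 at 25.1, 10.1 and 22.9 RPKM in DKO and 11.9, 11.6 and 11.7 RPKM in WT libraries, and Kit, which epithelia also express, rose at E17 (0.52, scaled 0.27) and fell at P5 (-0.53, scaled -0.33). Of the neutrophil list 2 of 5 tested rose at E17, Retnlg (0.83, scaled 0.65) and Ltf (1.71, scaled 1.52), and 0 of 2 passed at P5. Of the red cell genes 3 of 5 tested rose at E17 and 3 of 3 fell at P5, where 6.61% and 30.8% of all genes did. Hba-a1, an alpha globin, was among them at both stages (1.36, scaled 1.07 at E17 and -0.89, scaled -0.66 at P5). The summed red cell list was 6501 to 13046 RPKM in DKO against 3546 to 4400 RPKM in WT libraries at E17, and 317 to 722 RPKM in DKO against 810.2 to 886 RPKM in WT libraries at P5. Endothelial genes did not pass at E17, 0 of 8. At P5 Kdr fell (-0.47, scaled -0.29), 1 of 8, with 7 lower as deposited, against 30.8% and 58.2% of all genes. Mesenchyme genes fell in 3 of 8 at E17 and 4 of 8 at P5, where 3.07% and 30.8% of all genes did. Of 4 tested at P0, where 16.7% of all genes rose and 22.8% fell, Col1a1 rose (2.12, scaled 2.15). Col3a1, another fibrillar collagen gene (-1.09, scaled -1.07), and Prrx1, a mesenchymal transcription factor (-0.96, scaled -0.94), fell there. The summed mesenchyme list was 2383 to 2629 RPKM in DKO and 4016 to 4397 RPKM in WT libraries at E17, and 846 to 1221 RPKM in DKO and 1963 to 2161 RPKM in WT libraries at P5. At P0 it was 1958 to 2795 RPKM in DKO and 652 to 779 RPKM in WT libraries, of which Col1a1 averaged 2263 RPKM in DKO and 511 RPKM in WT libraries. The part of blood, vessels and mesenchyme in the marker values was not tested. Of the dendritic cell list 4 of 10 genes passed the filter at E17 and 1 of 9 at P5, and 0 rose or fell. Of the lymphocyte list 1 of 9 genes passed the filter at E17 and 0 of 8 at P5.

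**Figure D5:**
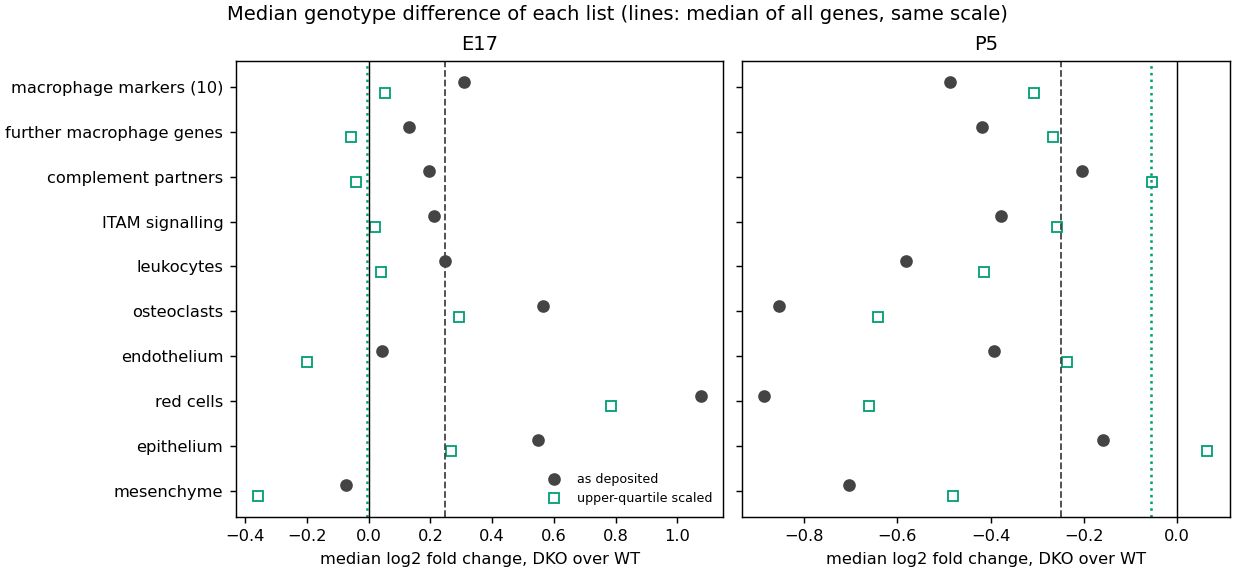
Median log2 fold change (DKO over WT) of the tested genes of each list at E17 and P5, as deposited (filled) and after upper-quartile scaling (open), with the median of all genes on each scale as a vertical line. The macrophage markers sit at 0.31 (scaled 0.05) at E17 and -0.49 (scaled -0.31) at P5, and the red cell list lies farthest right at E17 (1.08) and farthest left at P5 (-0.89).

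The genes whose pattern over the 6 libraries lay nearest to the median marker profile, by mean absolute difference of log2 values, were Timm29, Reep5, Ppil2, Sqstm1 and Ecd at E17. None of them is a macrophage gene by name, and Timm29 lay 0.00880 from the profile, against 0.0341 for C1qa, the nearest marker. At P5 the nearest were Ethe1, Cd1d1, Gm46430, Timm13 and Mdfic among 11423 genes, at 0.0193 to 0.0343, where Cx3cr1, C1qb and C1qc lay at 0.0586 to 0.0627. At P0 Tfam, Pwwp2a, Arhgef15 and Ramp3 were among the nearest of 2062 genes. The likeness is of genotype pattern over 6 libraries and is shared by many genes that shifted with the table.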

How the data were processed

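The 18 RNA libraries comprised 3 of DKO and 3 of WT molar epithelium for each of 3 stages. Per the labels' protocols, total RNA was depleted of ribosomal RNA before library preparation, and per the submitters' processing notes reads were processed in Partek on mm10. The authors deposited 1 table per stage of values per transcript. The deposited values were read as RPKM from their size and their steps, since the unit is not stated. Low values of genes with 1 transcript of known length were compared with whole multiples of 1 read, within a tolerance of 0.1. They matched for 84.8 to 86.2% (E17), 84.9 to 87.4% (P0) and 67.9 to 69.9% (P5). The read total of each library was itself chosen to make this share high, so the share alone does not establish the unit. A single read on 1 kb was then worth 0.0241 to 0.0359 RPKM (E17), 0.0215 to 0.0321 RPKM (P0) or 0.0324 to 0.0595 RPKM (P5), which limits precision for low genes, and these steps cover counting error only. The E17 and P0 tables name Ensembl transcripts and the P5 table RefSeq transcripts.

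RPKM were summed per gene symbol, and genes with at least 1 RPKM in at least 3 of 6 libraries were tested with limma 3.58.1 (R 4.3.3, lmFit and eBayes with trend) on log2(RPKM + 1), which understates changes of low genes. P-values were Benjamini-Hochberg adjusted over all genes tested, and a call needed an adjusted p under 0.05 in the same direction as deposited and after upper-quartile scaling. Differences between stages were tested from both stages' estimates. The named genes are the 10 markers, Hmgn1 and Hmgn2, the 3 ligand genes, up to 6 further macrophage genes and up to 3 of each other list per stage with the smallest p, and the 5 genes per stage nearest in pattern. Other genes named were chosen after their values were seen. Some genes that this rule names are not reported here. The members and all lists were chosen with earlier results of these data known. On simulated data 200 genes were changed, at a log2 fold of 0.5 or 1. Of those at 0.5, 75%, 82% and 79% were recovered for E17, P0 and P5, with 10, 12 and 14 false calls. Unlike the real values, the simulated ones held no shift of most genes with genotype. Alternatives were median-of-ratios scaling, limma without trend, a pseudocount of 0.1, sums without Lyz2 or as geometric means, no filter, each scaling alone, the most abundant transcript alone, a replicate block and leaving out each library.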

Additional observations from a re-analysis of the deposited data

Results flagged for a closer look

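For 6 comparisons of a marker between stages, the test of the difference itself passed in both scalings, and these were singled out for that reason. The DKO minus WT difference on the log2 scale was lower at P5 than at E17 by -0.92 for Csf1r, -1.35 for Tyrobp, -1.05 for Cd68 and -0.97 for Aif1. It was lower at P0 than at E17 by -0.89 for Cd68, and lower at P5 than at P0 by -0.66 for Lyz2. The stages come from separately normalized tables, and stage and table cannot be told apart in these values.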

How the results depend on the processing

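The count of genes called at E17 depended most on scaling: it was 1330 as defined, 2020 with median-of-ratios scaling, 2011 with upper-quartile scaling alone, 8188 as deposited alone and 804 with no filter, and 569 to 1445 with a library left out. At P5 it was 7486 as deposited alone. Of all calls at E17 94.5% were higher in DKO as deposited and 45.2% after scaling, and at P5 11.2% and 38.6%. Markers called at E17 numbered 2 with median-of-ratios scaling, 2 with upper-quartile scaling alone, 7 as deposited alone and 0 to 1 with a library left out. At P0 they numbered 0 with no filter and 1 to 2 with a library left out, and at P5 0 with no filter and 2 to 6 with a library left out. Among all genes with no filter, 401 of 4841 were called lower and 332 higher at P0. At P5 these were 2856 and 860 of 19450. With a library left out, 637 to 867 of 2062 genes were called at P0 and 3540 to 4150 of 11423 at P5. Also at P5, 3 of 9 markers tested passed with the most abundant transcript alone, where Cx3cr1 (scaled adjusted p = 0.0519) and Cd68 (0.0602) were lost, and 5 of 10 with median-of-ratios scaling, where Aif1 (0.0504) was lost. With the most abundant transcript alone, 2505 of 11047 genes were called lower and 755 higher at P5. With median-of-ratios scaling, 2802 of 11423 genes were called lower and 2857 higher. For changes between stages under a single scaling, the shares of all genes are not given here, so the marker counts that follow have no background beside them. Markers whose difference changed from E17 to P0 numbered 2 under either scaling alone, from P0 to P5 2 with upper-quartile scaling alone, and from E17 to P5 10 as deposited alone. From E17 to P0 these were Fcer1g and Cd68, both downward, as deposited. After scaling they were Cd68, downward, and Lyz2, upward (0.36). From P0 to P5 the scaled changes were Lyz2, downward, and Fcer1g, upward (0.35). The ratio of summed markers was 0.998 with median-of-ratios and 0.997 with upper-quartile scaling at E17, 0.827 and 0.791 at P5, and 0.708 without Lyz2 at P0.

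Directions reversed at E17 for C1qb with upper-quartile scaling (-0.0024), for Fcer1g (-0.18 with median-of-ratios and -0.19 with upper-quartile scaling), for Lyz2 (-0.16 and -0.16) and for Cx3cr1 (0.0152 with the most abundant transcript alone, and -0.0914 to 0.0019 with a library left out). The cause was not tested. Same-numbered DKO and WT libraries correlated at -0.02, 0.22 and -0.02 at E17, -0.17, 0.27 and -0.08 at P0 and -0.22, -0.07 and 0.04 at P5. With so few libraries per group, these values cannot show whether the replicate numbers pair the samples. With a replicate block 1178, 827 and 3947 genes and 0, 2 and 6 markers were called.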

Other observations

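Further ratios within a library were computed after the values were seen and carry no test. Cx3cr1 relative to the mean of the C1q chains was lower in every DKO library at both stages: 0.139, 0.121 and 0.134 in DKO against 0.154, 0.193 and 0.171 in WT libraries at E17, and 0.192, 0.160 and 0.160 in DKO against 0.237, 0.221 and 0.2005 in WT libraries at P5. Fcer1g relative to Lyz2 was 0.207, 0.130 and 0.204 in DKO and 0.269, 0.298 and 0.293 in WT libraries at P0, without overlap. That ratio overlapped at E17, at 0.224 to 0.257 in DKO and 0.228 to 0.270 in WT libraries. It overlapped at P5 too, with the higher mean in DKO, at 0.278 to 0.313 in DKO and 0.239 to 0.287 in WT libraries. The C1q share of the summed markers overlapped between genotypes at E17, at 32.6 ± 0.567% in DKO and 31.7 ± 1.91% in WT libraries, and at P5, at 35.5 ± 3.12% in DKO and 31.7 ± 1.67% in WT libraries (SD, n = 3 each).

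Among the P5 markers, WT replicate 2 was the highest WT library for 9 of 10 genes and DKO replicate 2 the lowest DKO library for 6 of 10. After scaling these counts were 8 and 4.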
